A study of Rattus norvegicus with 20 samples.

Results

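The 10 genes of mTORC1 nutrient control described here were followed in primary rat islets: the brakes Ddit4l, Ddit4, Tsc1 and Tsc2, the nutrient sensors and Rag regulators Sesn1, Sesn2 and Rnf152, and the amino acid transporter genes Slc43a2, Slc7a5 and Slc3a2. They are 10 of the 14217 genes measured and have 14 of the 31099 probe sets. Of these, 3 (Ddit4l, Rnf152 and Slc43a2) were chosen because their values differed from GFP in the same arrays, so their differences from GFP are given as a description without a p-value. Their other comparisons share arrays with that choice and are not independent of it. The other 7 were listed for their role. Expression was measured on 20 Affymetrix arrays, 1 per sample, of pancreatic islets from male Wistar rats aged 8 weeks. Islets were cultured in RPMI medium with 10% serum and 8 mM glucose. The 4 groups of 5 arrays are islets given an adenovirus for Nr4a1, an adenovirus for Nr4a3 or an adenovirus for green fluorescent protein (GFP), and untreated islets. Virus was present for 18 h, and islets were collected 48 h after its addition. Both receptors belong to the NR4A family of nuclear receptors, which bind DNA and regulate transcription without a known natural ligand. The labels' treatment protocol instead lists beta-galactosidase and Nkx6-1 viruses, while titles, characteristics and design name the groups used here. The labels call the replicates biological and do not say how many animals stand behind a sample or whether islets were pooled, so p-values measure only the spread between these samples.

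mTORC1 is a kinase complex at the lysosome that turns on protein synthesis and cell growth when growth factors, energy and amino acids are all sufficient. Growth factor signals reach it through the TSC complex, which holds the small GTPase Rheb inactive, and amino acid signals reach it through the Rag GTPases. In the beta cell, mTORC1 is known for its part in growth, proliferation and insulin production. Ddit4l and its paralogue Ddit4 encode inhibitors of mTORC1 that act through the TSC complex. Sestrins inhibit the Rag branch when leucine is scarce, Rnf152 is a ubiquitin ligase for a Rag GTPase, and Slc43a2, Slc7a5 and Slc3a2 carry large neutral amino acids across the plasma membrane.

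The promoter of Ddit4l is shown beside that of Ddit4 because the 2 paralogues had unlike patterns on the arrays. Each is the 250 bases before the start of the gene in RefSeq's GRCr8 annotation, read on the gene's strand. Ddit4l lies on the plus strand at chr2:228801457-228801706 and Ddit4 on the minus strand at chr20:28437038-28437287. Capitals mark, in this order, AAAGGTGA and TATAAA in Ddit4l. Ddit4 held none of the 4 motifs searched, and is printed without capitals.
Ddit4l promoter: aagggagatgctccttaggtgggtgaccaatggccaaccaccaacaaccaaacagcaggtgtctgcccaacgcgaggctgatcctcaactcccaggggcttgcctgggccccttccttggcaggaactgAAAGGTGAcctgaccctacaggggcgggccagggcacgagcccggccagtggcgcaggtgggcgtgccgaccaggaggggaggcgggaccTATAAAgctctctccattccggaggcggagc
Ddit4 promoter: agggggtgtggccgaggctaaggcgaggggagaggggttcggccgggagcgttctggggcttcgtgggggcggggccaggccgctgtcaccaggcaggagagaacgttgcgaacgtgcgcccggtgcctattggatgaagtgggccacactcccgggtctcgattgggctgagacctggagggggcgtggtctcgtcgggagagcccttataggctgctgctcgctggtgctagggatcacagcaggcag
The element that NR4A receptors bind as monomers, AAAGGTCA, was searched on both strands in 11 promoter windows of the 10 genes (Slc3a2 has 2). Only the 250 bases before the start were searched. The other motifs searched were TGATGNAA, bound by Atf4, the E-box CACGTG and the TATA box TATAAA. It was in 0 of the 11, against 1.24% of 33469 windows of all genes. The Ddit4l window held AAAGGTGA, which differs from it by C7G (positions counted from the first base of the element), 121 bases before the start, and 2 of the 11 windows had such a match with 1 mismatch, against 19.7% of all windows. TATAAA lay 31 bases before the start of Ddit4l, and 2 of the 11 windows held one, against 12.9% of all windows. CACGTG was in 1 of the 11, that of Slc7a5, against 5.59% of all windows, and TGATGNAA in 0, against 3.4%. These matches are descriptions of letters and do not show binding.

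Array values are intensities made by RMA (robust multi-array averaging, in which background is removed, arrays are brought to 1 distribution and the probes of a set are combined) and are given here as log2 intensity. Each gene is represented by its brightest probe set, by the mean over the 20 arrays. Values of different probe sets cannot be set against each other, so levels are compared only between groups. Differences are the first group minus the second in a linear model over all 20 arrays (limma), and a gene was called at a Benjamini-Hochberg adjusted p under 0.05 over all 14217 genes. In bulk samples, fewer cells of a type and less RNA per cell cannot be told apart. Nr4a3 replicate 2 stood apart, with a mean correlation of 0.941 with the other arrays across genes, against 0.982 to 0.989 for the others, and a difference of 4.62 between the 3' and 5' beta-actin control probe sets, against 1.5 to 2.21. The differences of the 10 genes that involve the Nr4a3 group are therefore also given without it. The model has 1 spread shared by all groups, so this array also affects tests of comparisons that do not include it. Without it, 2714 genes were called in Nr4a1 against GFP, in place of 1239. The probe sets of Nr4a1 and Nr4a3 did not follow the labels: Nr4a1 averaged 5.99 ± 0.12 in the arrays labelled Nr4a1 and 6.07 ± 0.09 in GFP arrays, and the brightest Nr4a3 probe set 6.07 ± 0.13 in the arrays labelled Nr4a1, 5.82 ± 0.19 in those labelled Nr4a3 and 5.63 ± 0.17 in GFP arrays (SD, n = 5 each). That Nr4a3 probe set was thus highest under the other receptor's label, with a rise of 0.44 ± 0.10 over GFP there (SE, limma adjusted p = 0.0081 over all probe sets). One further Nr4a3 probe set was 0.75 ± 0.23 above GFP in the arrays labelled Nr4a1 (adjusted p = 0.0636) and 0.50 ± 0.23 in those labelled Nr4a3 (0.422). The labels do not say where they lie relative to the viral inserts. They therefore test neither delivery nor labels, and "Nr4a1 arrays" and "Nr4a3 arrays" below mean arrays with those labels. The islet markers Ins1, at 14.66 to 15.06, and Gcg, at 14.37 to 14.85, were bright on every array.

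Ddit4l had the highest levels in both receptor groups and was dim in both others. It measured 10.24, 10.86, 8.63, 11 and 10.00 in the Nr4a1 arrays and 10.40, 8.05, 9.82, 8.46 and 8.59 in the Nr4a3 arrays (replicates 1 to 5). It measured 5.79, 6.22, 6.02, 5.70 and 6.55 in the GFP arrays, and 6.04, 6.49, 5.56, 6.02 and 5.87 in the untreated arrays. Every Nr4a1 and Nr4a3 array lay above every GFP and untreated array, and the ranges of the 2 receptor groups overlapped. Of all genes, 7.65% had every Nr4a1 array and 1.82% every Nr4a3 array above every untreated array (5.04% without Nr4a3 replicate 2). Against GFP the mean was higher by 4.09 ± 0.42 (SE, n = 5 per group) on the log2 scale in the Nr4a1 group, which is 17.0-fold. In the Nr4a3 group it was higher by 3.01 ± 0.42, which is 8.04-fold, or 9.59-fold without Nr4a3 replicate 2, the lowest array of its group. These contrasts chose the gene. Spread within the receptor groups was wide, with an SD of 0.95 in the Nr4a1 and 0.996 in the Nr4a3 group against 0.34 in both the GFP and the untreated group. The Nr4a1 mean exceeded the Nr4a3 mean by 1.08 ± 0.42, which did not pass the test (limma adjusted p = 0.326, and 0.474 without Nr4a3 replicate 2). Between GFP and untreated islets the difference was 0.06 ± 0.42 (limma adjusted p = 0.9997). This SE uses the spread shared by all 4 groups, which the receptor groups widen.

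Ddit4, the stress- and hypoxia-induced paralogue, was bright in all 4 groups and did not share this pattern. It measured 10.43, 10.23, 9.87, 9.87 and 10.07 in the Nr4a1 arrays and 10.07, 8.24, 9.95, 9.56 and 10.20 in the Nr4a3 arrays. In the GFP arrays it measured 9.57, 10.03, 10.14, 9.71 and 9.68, and in the untreated arrays 9.87, 10.22, 9.30, 9.54 and 9.76. The ranges of all groups overlapped, and the 8.24 of Nr4a3 replicate 2 was the lowest value. The difference from GFP was 0.27 ± 0.27 in the Nr4a1 group, with a 95% interval of -0.30 to 0.83. It had a limma adjusted p of 0.695, and of 0.291 without Nr4a3 replicate 2. In the Nr4a3 group it was -0.22 ± 0.27 (limma adjusted p = 0.747), and 0.12 without Nr4a3 replicate 2 (adjusted p = 0.825).

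**Figure D1:**
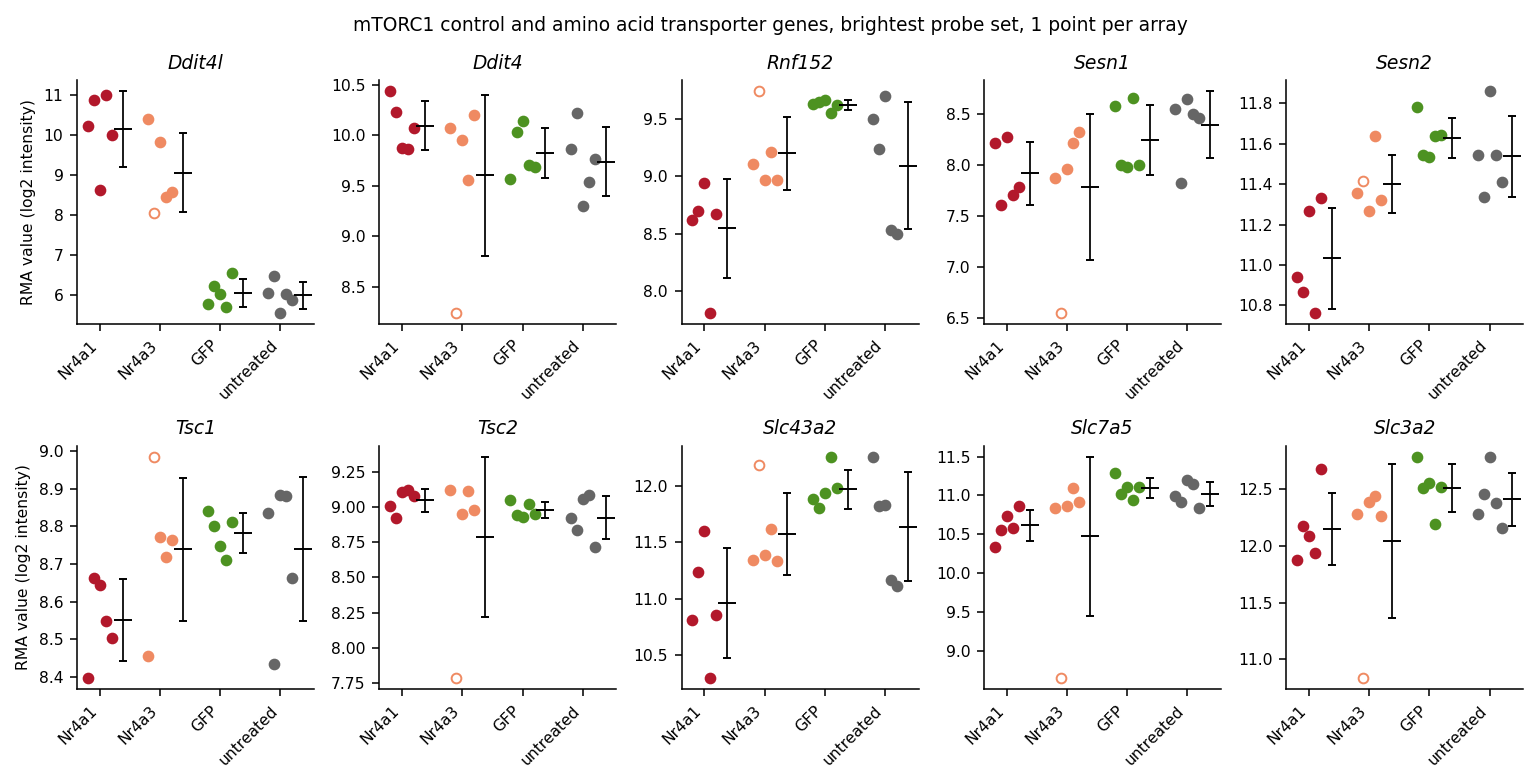
Log2 intensity of the brightest probe set of each of the 10 genes in every array, in 1 panel per gene with its own axis; points are arrays in the groups Nr4a1, Nr4a3, GFP and untreated, the open point is Nr4a3 replicate 2, and bars are the mean ± SD of 5 arrays. Ddit4l lies at 8.05 or above in every receptor array and at 6.55 or below in every GFP and untreated array, and the open point is the lowest of all arrays for Ddit4, Sesn1, Tsc2, Slc7a5 and Slc3a2.

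Tsc1 and Tsc2, the subunits of the TSC complex through which Ddit4 proteins act, stayed within narrow ranges. Tsc1 measured 8.40, 8.66, 8.64, 8.55 and 8.50 in the Nr4a1 arrays, 8.46, 8.98, 8.77, 8.72 and 8.76 in the Nr4a3 arrays, 8.84, 8.80, 8.75, 8.71 and 8.81 in the GFP arrays and 8.83, 8.44, 8.88, 8.88 and 8.66 in the untreated arrays. All 5 Nr4a1 arrays lay below all GFP arrays, though they overlapped the untreated arrays. The difference of -0.23 ± 0.10 from GFP did not pass the test (limma adjusted p = 0.168, and 0.0636 without Nr4a3 replicate 2). It did pass in a fit to only those 10 arrays (adjusted p = 0.0212) and in one with array weights (0.0376), and the dimmer Tsc1 probe set differed by -0.06. In Nr4a3 against GFP the Tsc1 difference was -0.04 ± 0.10 (limma adjusted p = 0.866), and -0.11 without Nr4a3 replicate 2 (0.641). Tsc2, the GTPase-activating subunit, ranged from 8.92 to 9.12 in the Nr4a1, 7.78 to 9.12 in the Nr4a3, 8.93 to 9.05 in the GFP and 8.72 to 9.08 in the untreated arrays. The 7.78 belongs to Nr4a3 replicate 2, and the next lowest Nr4a3 value was 8.95. The Tsc2 difference from GFP was 0.07 ± 0.18 in the Nr4a1 group (limma adjusted p = 0.913, and 0.558 without that array). In the Nr4a3 group it was -0.19 ± 0.18 (adjusted p = 0.669), or 0.06 without that array (0.761).

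Sesn2, a leucine-binding sestrin that inhibits mTORC1, fell in the Nr4a1 arrays. It measured 10.94, 10.87, 11.27, 10.76 and 11.33 in the Nr4a1 arrays and 11.36, 11.42, 11.27, 11.64 and 11.32 in the Nr4a3 arrays. In the GFP arrays it measured 11.78, 11.55, 11.54, 11.64 and 11.64, and in the untreated arrays 11.54, 11.34, 11.86, 11.54 and 11.41. All 5 Nr4a1 arrays lay below every GFP and every untreated array, and 3.52% of all genes lay so against untreated arrays. No gene of the 10 had all Nr4a3 arrays below all untreated arrays, where 0.935% of all genes did (1.91% without Nr4a3 replicate 2). The difference from GFP was -0.60 ± 0.11, or 0.661 times the GFP level (limma adjusted p = 0.00194, and 0.000978 without Nr4a3 replicate 2). In the Nr4a3 group it was -0.23 ± 0.11 (adjusted p = 0.412, and 0.359 without Nr4a3 replicate 2), and the Nr4a1 group was below the Nr4a3 group by -0.37 ± 0.11, which did not pass (adjusted p = 0.196, and 0.186 without Nr4a3 replicate 2). A dimmer Sesn2 probe set differed by -0.27 ± 0.13 in Nr4a1 against GFP (adjusted p = 0.315 over all probe sets). Sesn1, a p53 target of the same family, measured 8.21, 7.61, 8.27, 7.70 and 7.78 in the Nr4a1 arrays, and 7.87, 6.55, 7.96, 8.21 and 8.32 in the Nr4a3 arrays. It measured 8.57, 8.00, 7.98, 8.66 and 7.99 in the GFP arrays, and 8.55, 7.82, 8.64, 8.50 and 8.46 in the untreated arrays. The groups overlapped. The difference from GFP was -0.33 ± 0.26 in Nr4a1 islets (limma adjusted p = 0.589, and 0.227 without Nr4a3 replicate 2). In Nr4a3 islets it was -0.46 ± 0.26 (limma adjusted p = 0.496, and -0.15 with 0.784 without Nr4a3 replicate 2).

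Rnf152, whose product ubiquitinates a Rag GTPase and restrains mTORC1, was lowest in the Nr4a1 arrays. It measured 8.62, 8.70, 8.94, 7.81 and 8.67 in the Nr4a1 arrays and 9.11, 9.74, 8.97, 9.21 and 8.97 in the Nr4a3 arrays. The GFP arrays lay close together at 9.63, 9.65, 9.66, 9.55 and 9.62, while the untreated arrays were spread over 9.5, 9.23, 9.70, 8.53 and 8.49. Every Nr4a1 array lay below every Nr4a3 and every GFP array, but 2 untreated arrays reached into the Nr4a1 range. The mean was -1.07 ± 0.23 from GFP in the Nr4a1 group, 0.475 times its level, and -0.42 ± 0.23 in the Nr4a3 group, or -0.56 without Nr4a3 replicate 2, which was the highest Nr4a3 array for this gene. The difference of -0.65 ± 0.23 between the Nr4a1 and Nr4a3 groups did not pass the test (limma adjusted p = 0.272, and 0.371 without Nr4a3 replicate 2). GFP islets exceeded untreated islets by 0.53 ± 0.23 (limma adjusted p = 0.9997).

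Slc43a2, a sodium-independent carrier of branched-chain amino acids, followed a similar order. Its brightest probe set measured 10.81, 11.24, 11.60, 10.30 and 10.86 in the Nr4a1 arrays and 11.34, 12.18, 11.39, 11.61 and 11.33 in the Nr4a3 arrays. It measured 11.88, 11.80, 11.93, 12.25 and 11.98 in the GFP arrays, and 12.25, 11.82, 11.83, 11.17 and 11.12 in the untreated arrays. All Nr4a1 arrays lay below all GFP arrays, and the Nr4a3 arrays did so only without replicate 2. Both receptor groups overlapped the untreated arrays. GFP islets exceeded untreated islets by 0.33 ± 0.23 (limma adjusted p = 0.9997). The mean was -1.01 ± 0.23 from GFP in the Nr4a1 group, 0.497 times its level, and -0.40 ± 0.23 in the Nr4a3 group, or -0.55 without Nr4a3 replicate 2. The second Slc43a2 probe set gave -0.85 ± 0.15 in Nr4a1 islets and -0.58 ± 0.15 in Nr4a3 islets, or -0.44 without Nr4a3 replicate 2. There Nr4a3 replicate 2 was the lowest Nr4a3 array, at 9.40, although it was the highest on the brightest probe set. The Nr4a1 and Nr4a3 groups differed by -0.61 ± 0.23 on the brightest probe set (limma adjusted p = 0.322, and -0.46 with 0.46 without Nr4a3 replicate 2).

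Slc7a5 and Slc3a2 encode the light and heavy chain of the main leucine importer and had lower means in Nr4a1 than in GFP arrays. Slc7a5 measured 10.34, 10.55, 10.73, 10.58 and 10.87 in the Nr4a1 arrays and 10.83, 8.65, 10.86, 11.10 and 10.92 in the Nr4a3 arrays. It measured 11.29, 11.02, 11.11, 10.95 and 11.11 in the GFP arrays, and 10.99, 10.91, 11.20, 11.14 and 10.83 in the untreated arrays. All Nr4a1 arrays lay below all GFP arrays but overlapped the untreated arrays, and the 8.65 of Nr4a3 replicate 2 lay far below the other Nr4a3 arrays. Over all arrays the Nr4a1 difference was -0.48 ± 0.31 and did not pass (limma adjusted p = 0.44). In the fit without Nr4a3 replicate 2 it was -0.48 ± 0.10, or 0.717 times the GFP level, and passed (limma adjusted p = 0.0014). In the Nr4a3 group it was -0.62 ± 0.31 (limma adjusted p = 0.409), and -0.17 ± 0.10 without replicate 2 (0.461). Slc3a2 measured 11.87, 12.17, 12.09, 11.94 and 12.68 in the Nr4a1 arrays, and 12.29, 10.83, 12.39, 12.44 and 12.26 in the Nr4a3 arrays. It measured 12.79, 12.51, 12.56, 12.19 and 12.52 in the GFP arrays, and 12.29, 12.46, 12.78, 12.38 and 12.16 in the untreated arrays. The Nr4a1 and GFP ranges of Slc3a2 overlapped, and the difference was -0.36 ± 0.24 (limma adjusted p = 0.459, and 0.0758 without Nr4a3 replicate 2). In Nr4a3 islets it was -0.47 ± 0.24 (limma adjusted p = 0.415), and -0.17 without replicate 2 (0.648).

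Counted together, 4 of the 10 genes were called in Nr4a1 against GFP, where 8.71% of all genes were called: Ddit4l higher, and Rnf152, Slc43a2 and Sesn2 lower. As 3 of these were chosen from that contrast, the count is read only over the 7 genes listed for their role. Of those, 0 rose and 1 fell (Sesn2), against 6.16% of all genes higher and 2.55% lower. Without Nr4a3 replicate 2, 2 of the 7 fell (Sesn2 and Slc7a5), against 6.86% of all genes lower (19.1% called in either direction). With no overlap between Nr4a1 and GFP arrays, 0 of the 7 were higher and 3 were lower (Sesn2, Tsc1 and Slc7a5), against 10.6% and 5.63% of all genes. The 7 genes had a median difference of -0.33, with 5 below 0, against a median of -0.0013 over all genes. In Nr4a3 against GFP 1 of the 10 was called, Ddit4l, which that contrast chose, against 1.93% of all genes (3.71% without Nr4a3 replicate 2), and 0 of the 7 others were called. Only Ddit4l did not overlap, where 3.12% of all genes were higher and 1.51% lower with no overlap. Without Nr4a3 replicate 2, Rnf152 and Slc43a2 were also lower with no overlap, where 7.46% of all genes were higher and 2.86% lower. As values against GFP chose Ddit4l, Rnf152 and Slc43a2, this lack of overlap in Nr4a3 against GFP is a description only. The 7 genes had a median of -0.23 there, and -0.15 without that array, against 0.0033 and 0.019 over all genes. Both contrasts share the GFP arrays. In Nr4a1 against Nr4a3 0 of the 10 were called, with 0.633% of all genes called (0.598% higher and 0.0352% lower), and 0 were called without Nr4a3 replicate 2 (0.816% of all genes higher and 0.12% lower). The genes not yet given for this pair, Ddit4, Sesn1, Tsc1, Tsc2, Slc7a5 and Slc3a2, differed by -0.19 to 0.49 (limma adjusted p = 0.46 to 0.86), and by -0.31 to 0.15 without Nr4a3 replicate 2 (0.174 to 0.988). Only Rnf152 did not overlap, lower in Nr4a1, where 1.72% of all genes were higher and 0.935% lower with no overlap (2.31% and 2.2% without Nr4a3 replicate 2). Rnf152 was chosen from values that include the same Nr4a1 arrays, so this too is a description only. In GFP against untreated limma called 0 of the 10 and 0 of all 14217 genes, and the ranges of all 10 genes overlapped. At an unadjusted limma p under 0.05 there were 412 genes, below the share of 0.05 expected by chance. Without Nr4a3 replicate 2 there were 855, above that share. The differences of the 10 lay between -0.15 for Sesn1 and 0.53 for Rnf152.

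**Figure D2:**
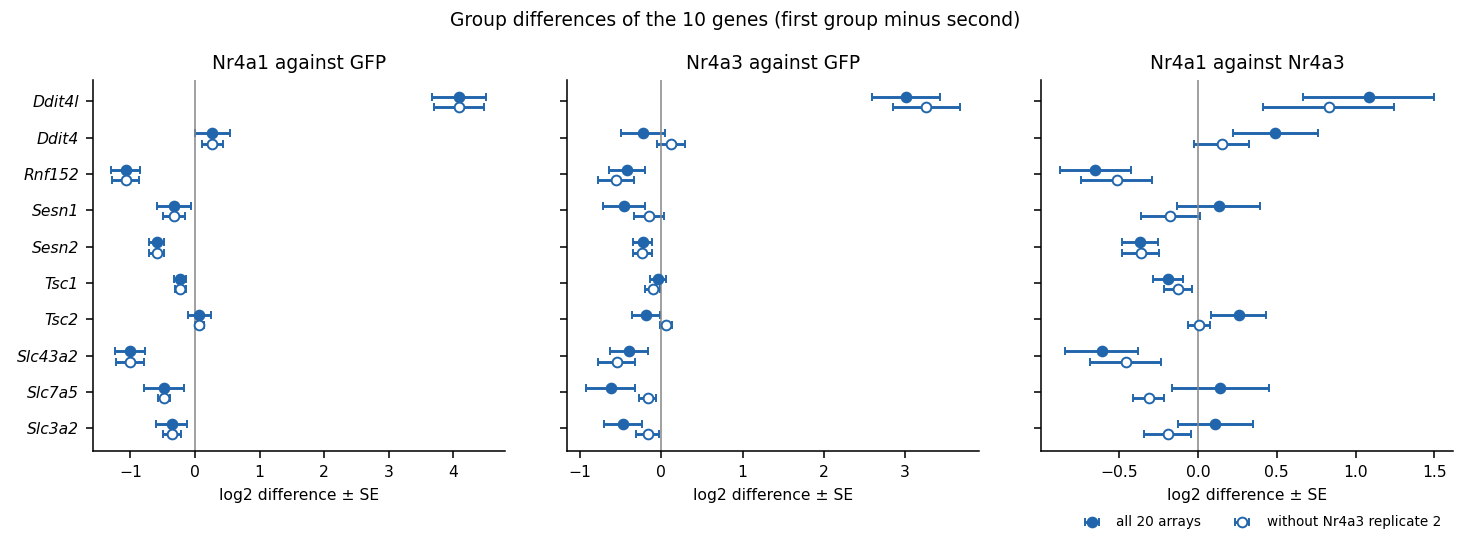
Log2 difference (first group minus second) with its SE for the 10 genes, in 1 panel for Nr4a1 against GFP, Nr4a3 against GFP and Nr4a1 against Nr4a3, each with its own horizontal axis; filled points use all 20 arrays and open points leave out Nr4a3 replicate 2. Ddit4l stands at 4.09 and 3.01 against GFP while the other 9 genes lie between -1.07 and 0.27, and the open points of Slc7a5 have an SE of 0.10 in place of 0.31.

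Acinar cell genes, which encode digestive enzymes, differed between the same groups. Of 21 measured acinar genes, 18 rose in Nr4a1 against GFP (list median 2.64) and 0 were called in Nr4a3 against GFP (median 0.86). Their summed linear intensity ranged over 36701 to 87182 in Nr4a1, 17936 to 32833 in Nr4a3, 4138 to 25861 in GFP and 4657 to 56283 in untreated arrays. None of the 21 is at 0, since the arrays give an intensity for every probe set. Untreated replicate 5 had an acinar mean of 10.45, within the Nr4a1 range of 9.84 to 11.15, and a Ddit4l value of 5.87. Rnf152 and Slc43a2 were low in that array, at 8.49 and 11.12, and also in untreated replicate 4, at 8.53 and 11.17, whose acinar mean was 7.02, among the lowest. With the acinar mean as a covariate, the Nr4a1 difference from GFP was 4.16 for Ddit4l, -0.995 for Rnf152 and -0.89 for Slc43a2. For Sesn2 it was -0.60 (limma adjusted p = 0.0902) and for Slc7a5 -0.27. The SEs with this covariate were 0.62 for Ddit4l, 0.33 for Rnf152, 0.34 for Slc43a2 and 0.17 for Sesn2. Sesn2 lost its call, with an SE of 0.11 in the fit without the covariate. The acinar means of the GFP arrays, 6.93 to 9.40, did not overlap those of the Nr4a1 arrays. This fit therefore cannot cleanly separate acinar content from the Nr4a1 group. In the beta cell list Ucn3 was matched by synonym to Ucn2, a different gene, which the counts and sums of that list include. Of its 14 genes 6 fell in Nr4a1 against GFP (median -0.55, and 9 fell without Nr4a3 replicate 2), and 1 fell in Nr4a3 against GFP. Their summed intensity was 106771 to 120878 in Nr4a1, 99874 to 126286 in Nr4a3, 121873 to 128762 in GFP and 119738 to 132156 in untreated arrays. Of 11 endothelial genes 7 fell in Nr4a1 against GFP (median -0.60) and 2 in Nr4a3 against GFP (3 without Nr4a3 replicate 2). Their sums were 2012 to 2882 in Nr4a1, 2444 to 2883 in Nr4a3, 3076 to 4754 in GFP and 3527 to 5561 in untreated arrays. RNA quality, read as the 3' over the 5' probe set for GAPDH on the log2 scale, was 0.271 to 0.357 in Nr4a1, 0.409 to 2.06 in Nr4a3, 0.499 to 0.739 in GFP and 0.408 to 0.72 in untreated arrays. Beyond the fit with the acinar covariate, the part of these lists and of RNA quality in the differences of the 10 genes was not tested.

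**Figure D3:**
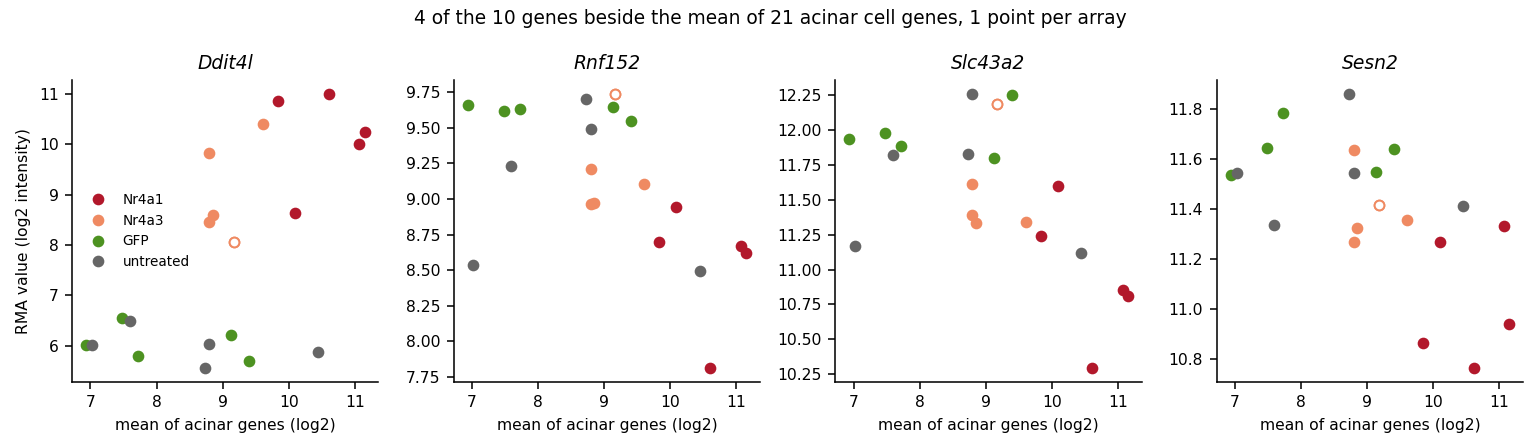
Log2 intensity of Ddit4l, Rnf152, Slc43a2 and Sesn2 (vertical axes) beside the mean log2 intensity of 21 acinar genes (horizontal axes), 1 point per array, coloured by group, with Nr4a3 replicate 2 open. Ddit4l is at 5.87 in the untreated array with an acinar mean of 10.45, and at 8.63 or above in the Nr4a1 arrays, whose acinar means span 9.84 to 11.15.

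The rest of the pathway was read from 6 lists with 138 measured genes. Over all arrays few of them were called, and more were called without Nr4a3 replicate 2, as given below. In Nr4a1 against GFP 9 of the 138 rose and 4 fell, which is 6.52% and 2.90%, near the 6.16% and 2.55% of all genes. The median difference was -0.05. Among mTORC1 core and brake genes, 1 of 15 rose and 1 fell: Mapkap1, a subunit of mTORC2, by 0.30 ± 0.09 (limma adjusted p = 0.0378), and Deptor, an inhibitor of the mTOR kinase, at -0.30 ± 0.07 (0.0092). Of 28 Rag and lysosomal nutrient sensing genes 2 rose, Sec13, a component of GATOR2, by 0.70 ± 0.14 (limma adjusted p = 0.00317) and Sesn3, the remaining sestrin, by 0.55 ± 0.15 (0.0307). Thus Sesn3 rose while Sesn2 fell in the same arrays. Of 18 insulin, growth factor and energy genes 2 rose and 1 fell. Igf1r, a receptor for insulin-like growth factors, had the largest fall of the lists, -0.95 ± 0.16 (limma adjusted p = 0.000796). Prkab1 and Prkag2, subunits of the energy sensor AMPK, rose by 0.30 ± 0.09 and 0.28 ± 0.09 (limma adjusted p = 0.0447 and 0.047). Of 20 mTORC1 substrate and lysosome target genes 0 were called, and 2 rose and 4 fell without Nr4a3 replicate 2.

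Among 24 genes of the amino acid response driven by the transcription factor Atf4, 2 rose and 0 fell in Nr4a1 against GFP. The list also holds Atf4 itself and the kinases Eif2ak4 and Eif2ak3, which act upstream of it. Eif2ak4, the kinase that senses uncharged transfer RNA, rose by 0.73 ± 0.10 (limma adjusted p = 8.14e-05). Aldh18a1, an enzyme of proline synthesis, rose by 0.73 ± 0.14 (limma adjusted p = 0.00196). Of 33 other amino acid transporters 2 rose and 2 fell. Slc38a1, a sodium-coupled glutamine carrier, rose by 0.55 ± 0.10 (limma adjusted p = 0.00104). Slc7a2, a cationic amino acid carrier, fell by 0.52 ± 0.12 (limma adjusted p = 0.00769), and Slc16a10, an aromatic amino acid carrier, fell by 0.45 ± 0.11 (0.0153). In Nr4a3 against GFP 2 of the 138 genes rose, 1.45% against 1.75% of all genes: Eif2ak4 by 0.49 ± 0.10 (limma adjusted p = 0.0127) and Slc38a2, a sodium-coupled neutral amino acid carrier, by 0.35 ± 0.08 (0.0299). Slc7a2 fell there by 0.49 ± 0.12 (limma adjusted p = 0.0337). Without Nr4a3 replicate 2 these differences were 0.43 for Eif2ak4, 0.28 for Slc38a2 and -0.43 for Slc7a2, and all 3 passed (limma adjusted p = 0.0157, 0.0276 and 0.0469). Without Nr4a3 replicate 2, 17 of the 138 genes rose and 15 fell in Nr4a1 against GFP. These were 12.3% and 10.9%, against 12.2% and 6.86% of all genes. In Nr4a3 against GFP 7 rose and 2 fell without that array, 5.07% and 1.45%, against 3.32% and 0.387% of all genes. In both remaining comparisons 0 of the 138 were called over all arrays.

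**Figure D4:**
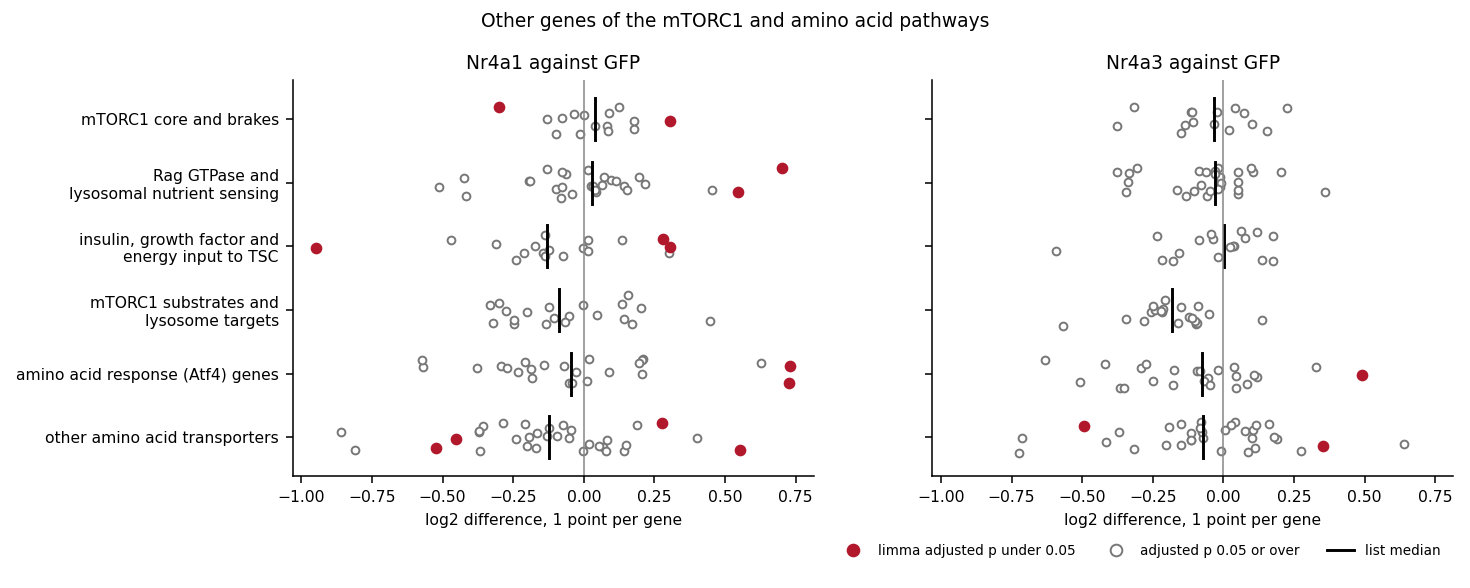
Log2 difference from GFP of 138 genes in 6 mTORC1 and amino acid lists, 1 point per gene, for Nr4a1 and Nr4a3; filled points passed a limma adjusted p under 0.05 and the vertical mark is the list's median. 13 genes are filled for Nr4a1 and 3 for Nr4a3, with Igf1r farthest left at -0.95.

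The genes most like Ddit4l were ranked by the root mean square difference over the 20 arrays between log2 values centred on each gene's mean. This difference was 0.60 for Nnat, 0.60 for Sct, 0.61 for Gucy2c, 0.84 for Fga, 0.84 for Gas2 and 0.97 for Gyg1, against a median of 1.96 over all 14216 other genes. Nnat encodes neuronatin, Sct the hormone secretin, Gucy2c the intestinal guanylate cyclase receptor, Fga a fibrinogen chain, Gas2 a growth arrest protein of the cytoskeleton and Gyg1 the primer of glycogen synthesis. The first 5 kept their rank without Nr4a3 replicate 2, and Gyg1 had rank 8. The other 9 genes of mTORC1 control lay between 1.86 and 2.32, so none was among those most like Ddit4l. A gene with no change over the arrays would lie at 1.94, the root mean square of Ddit4l about its own mean. Values near 1.94 can thus reflect little change in a gene. Nnat averaged 12.65 ± 0.35 in Nr4a1, 12.05 ± 0.44 in Nr4a3, 8.84 ± 0.23 in GFP and 8.82 ± 0.42 in untreated arrays (SD, n = 5 each). Sct averaged 9.51 ± 0.30, 9.34 ± 0.90, 5.54 ± 0.43 and 5.69 ± 0.22 in the same order of groups. All points share the arrays, and the ranking describes these 20 arrays only.

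**Figure D5:**
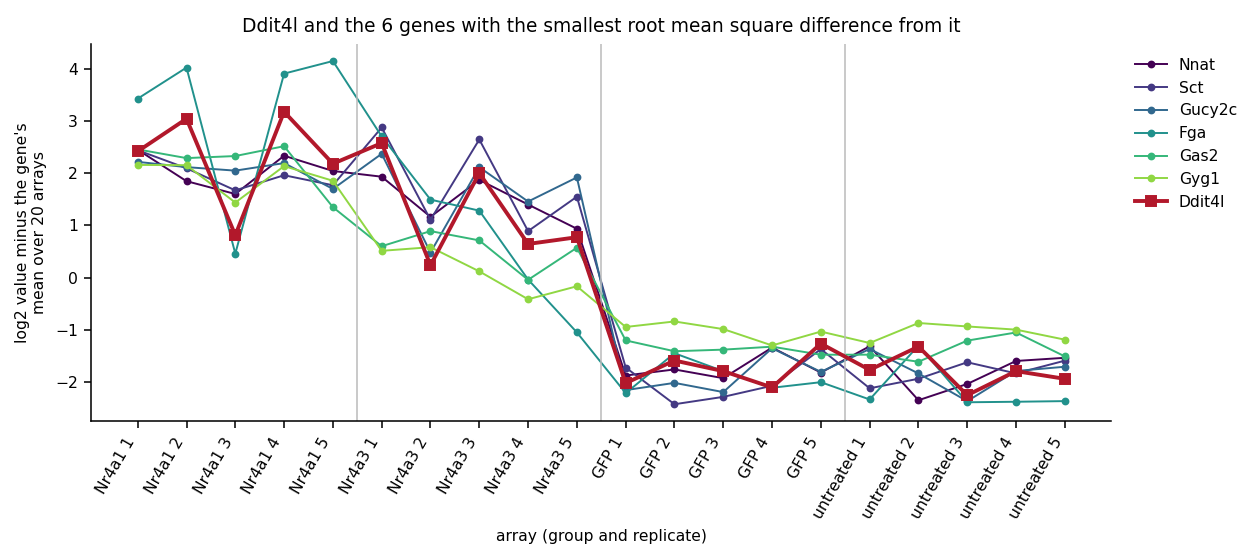
Log2 intensity minus the gene's mean over 20 arrays for Ddit4l (thick line with squares) and the 6 genes with the smallest root mean square difference from it, by array, with groups separated by vertical lines. The drop between Nr4a3 and GFP arrays is shared by the 7 genes, which follows from choosing the 6 for their likeness to Ddit4l. Nr4a1 replicate 3 is the lowest Nr4a1 array for Ddit4l, Fga, Nnat, Sct and Gyg1, but not for Gucy2c and Gas2.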

How the data were processed

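RNA of 20 rat islet samples was hybridised to 1 Affymetrix array each, and groups follow the titles in the labels. The deposited probe set intensity values are linear and were made by the authors with RMA, per the submitters' processing notes, without a stated version. They were log2-transformed without further scaling. Gene symbols came from the array's probe table (20832 probe sets with 1 symbol, 9831 with none, 436 with several), and 14217 genes were represented by their brightest probe set. A model with 1 mean per group was fitted with limma 3.58.1 in R 4.3.3, with two-sided moderated tests and Benjamini-Hochberg adjustment over all genes, and the code was tested on simulated data. The members and gene lists were chosen with earlier results of these data known. The text names all 10 members, up to 3 called genes with the smallest adjusted p per pathway list and comparison, and the 6 genes most like Ddit4l. Promoters are from RefSeq GRCr8, and protein sequences were not used here. Alternatives were other arrays in the fit, weights, normalizations, offset, filter, probe set rules, an acinar covariate, a replicate block and each array left out. The number of arrays limits the precision.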

Additional observations from a re-analysis of the deposited data

Results flagged for a closer look

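Of 56 groups of 5 arrays looked at for the 14 probe sets of the 10 genes, 6 had 1 array set far apart from the other 4, and chance gives about 1 in 20 groups. Nr4a3 replicate 2 was that array in 4 of them: its Slc7a5 value was 8.65 with the others at 10.83 to 11.10, its Slc3a2 value 10.83 with 12.26 to 12.44, its Tsc2 value 7.78 with 8.95 to 9.12 and its Sesn1 value 6.55 with 7.87 to 8.32. The same array stood apart in its control probe sets. In the Nr4a1 group, replicate 4 had a Rnf152 value of 7.81 with the others at 8.62 to 8.94. In the untreated group, replicate 2 had a Sesn1 value of 7.82 with the others at 8.46 to 8.64.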

How the results depend on the processing

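Ddit4l stayed higher than GFP by 3.80 to 4.2 in the Nr4a1 group under the alternatives that keep all arrays of the comparison, and by 3.88 to 4.47 with each array left out in turn. Of 1054 tested values of the 10 genes under alternatives, 1026 kept their direction and their side of the threshold. Only Sesn2 in Nr4a1 against GFP was called among the tested differences of the main fit, so nearly all of these were uncalled values that stayed uncalled. Leaving out an array outside a comparison also cannot change its difference. The 186 values of Ddit4l, Rnf152 and Slc43a2 against GFP, which carry no p, kept their direction. As the same arrays chose these genes, that is a description and not an independent check. The counts of called genes moved more: in Nr4a1 against GFP (1239) they were 2853 with only the 10 arrays compared, 3576 with array weights, 223 with the acinar covariate and 742 to 2714 with 1 array left out; in Nr4a3 against GFP (274) they were 122, 1027, 135 and 127 to 527; in Nr4a1 against Nr4a3 (90) they were 1, 274, 19 and 43 to 133. Of the 10 genes, 7 were called in Nr4a1 against GFP with array weights, 1 with the acinar covariate and 4 to 5 with 1 array left out. These counts include Ddit4l, Rnf152 and Slc43a2, which that contrast chose. Sesn2, listed for its role, lost its call with the acinar covariate. Slc7a5 gained its call with array weights (limma adjusted p = 0.000507), with only 10 arrays (0.00524) and without Nr4a3 replicate 2 (0.0014), and Slc3a2 with array weights (0.013).

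Signs turned for 21 of the tested values, none of them called. In Nr4a3 against GFP these were Ddit4 (0.020) and Tsc2 (0.065) with array weights and Tsc1 (0.054) with the mean of probe sets. In Nr4a1 against Nr4a3 they were Sesn1 (-0.22), Tsc2 (-0.011), Slc7a5 (-0.32) and Slc3a2 (-0.18) with array weights and Sesn1 (-0.031) with the mean of probe sets. In GFP against untreated, Tsc1 turned with repeated quantile normalization (-0.00056) and the mean of probe sets (-0.012). With 1 array left out the differences that turned ranged over -0.11 to 0.027 for Tsc1 in Nr4a3 against GFP, -0.37 to 0.12 for Ddit4 in Nr4a3 against GFP, -0.27 to 0.062 for Tsc2 in Nr4a3 against GFP, -0.19 to 0.21 for Slc3a2 in Nr4a1 against Nr4a3, -0.18 to 0.27 for Sesn1 in Nr4a1 against Nr4a3, -0.31 to 0.30 for Slc7a5 in Nr4a1 against Nr4a3, -0.062 to 0.18 for Ddit4l in GFP against untreated, -0.033 to 0.079 for Tsc1 in GFP against untreated and -0.022 to 0.21 for Ddit4 in GFP against untreated. The cause was not tested.

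Deviations of same-numbered arrays from their group means had correlations of -0.30 to 0.50, with 7 of 30 pairs over 0.1. The highest was that of replicate 2 in the Nr4a1 and untreated groups. Differently numbered arrays were not compared, so whether the numbers pair some of the samples is not settled. With the replicate block, 1088, 204, 70 and 0 genes were called in the 4 comparisons, and 4, 1, 0 and 0 of the 10 genes. The block changed no call of a gene of the 10.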
